A study of Mus musculus with 2 samples.

Results

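Neuropeptides are short signalling peptides that neurons cut from larger precursor proteins, pack into dense-core vesicles and release to act on G protein-coupled receptors. In the cortex many inhibitory interneurons make a neuropeptide beside GABA, and in the striatum enkephalin and substance P mark the indirect-pathway and direct-pathway projection neurons. The 10 precursor genes described here, chosen by symbol, were Npy, Vip, Cck, Penk, Pdyn, Tac1, Pnoc, Crh, Adcyap1 and Cartpt, out of 32285 genes in the deposited tables. Somatostatin (Sst) was left out of the set and is given only beside Npy. Levels are mRNA levels, and peptides were not measured.

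The cells came from the dorsal telencephalon of mouse embryos at embryonic day 16.5 (E16.5), labelled as brain hemispheres. The series was designed around a conditional deletion of Dot1l, a histone methyltransferase gene, under Emx1-Cre, a driver active in the cortical excitatory lineage, with control embryos beside it. The 2 libraries used here, WT replicate 1 and WT replicate 6, carry the genotype label WT and no treatment or strain in their labels. Deleted embryos were not analysed here. Both libraries form 1 group, so all comparisons are between cell classes within the same libraries.

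WT replicate 1 held 14136 called cells with 74930397 unique molecular identifiers (UMIs, each standing for 1 captured mRNA molecule), and WT replicate 6 held 13046 cells with 68964234 UMIs. After filters on UMIs, mitochondrial content and likely doublets, 7219 and 7352 cells were kept, and 26.4% and 24.5% of them passed no gate. The classes were set by counting distinct marker genes in each cell, and no member was a marker. The gates gave 12 neural classes: interneurons of the medial ganglionic eminence (MGE) with or without an Sst UMI, interneurons of the caudal ganglionic eminence (CGE), dorsal lateral ganglionic eminence (dLGE)-type cells, 2 striatal classes, cycling ganglionic eminence (GE) progenitors, deep-layer and upper-layer excitatory neurons, Cajal-Retzius cells, radial glia and intermediate progenitor cells (IPCs). Striatal cells were present although the protocol names the dorsal telencephalon. Lhx6, a gating marker of MGE interneurons, averaged 296 and 270 CPM (UMIs of the gene per 1000000 UMIs of the class) in the Sst+ and Sst- MGE classes, and Trp73, a gating marker of Cajal-Retzius cells, averaged 334 CPM in that class. Genes kept out of the gates gave a mixed check. Nkx2-1 averaged 33.8 and 32.7 CPM in the Sst+ and Sst- MGE classes and 3.21 in CGE interneurons. Crym averaged 138 CPM in deep-layer and 8.55 in upper-layer neurons. Ppp1r1b and Rgs9 did not single out the striatal classes. They averaged 1.03 and 11.4 CPM in Isl1/Ebf1/Drd1 neurons, 0 and 3.34 in Six3/Drd2 neurons, and 9.55 and 15.7 in deep-layer neurons. Haemoglobin Hbb-bs, a measure of free RNA, was found at 638 to 4957 CPM in the classes other than erythroid cells and at 385193 CPM in erythroid cells.

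The members differed widely in how much signal they gave. Npy was the most often captured, with 2026 UMIs in the kept cells of WT replicate 1 and 2038 in those of WT replicate 6. Cck followed with 769 and 492, Pnoc had 190 in both, Adcyap1 152 and 188, Tac1 108 and 204, and Penk 164 and 89. These 6 members passed the filter on low counts and entered the tests, and each reached 10 CPM in at least 1 neural class in both libraries. Vip, Pdyn, Crh and Cartpt had between 0 and 10 UMIs in the kept cells of each library and were not tested.

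Sequence near annotated starts of several members is shown because the cAMP response element (CRE) is a known control element of neuropeptide genes. CREB binds this site. The windows come from RefSeq (GRCm38.p6) and run from 250 bases before to 50 after an annotated start, of which a gene can have more than 1. The stretches shown for Adcyap1 and Cartpt lie inside the gene spans given below, not before their outer ends. Entries were found for 7 members, and those of Penk, Pnoc and Crh were not. The palindromic element TGACGTCA, searched on both strands, was present in 1 of the 7 members. That was 1 of their 9 windows, against 1.79% of all 32851 windows. The shorter TGACG, also searched on both strands and contained in the palindrome, was found in 5 of the 7 members. That was 6 of their 9 windows, against 20.8% of all windows, and windows of Adcyap1 overlap at the same site. The stretches run 5′ to 3′ on the gene's strand, and capitals mark the motif, where CGTCA is TGACG on the opposite strand.
Cartpt, chr13:99900777-99900806, minus strand: ccggcgggcatTGACGTCAaacggcagcgg
Vip, chr10:5639127-5639155, plus strand: ggatcactactgTGACGtctttcggggag
Adcyap1, chr17:93198914-93198942, plus strand: ggactaggatgcTGACGtcttttactgat
Cck, chr9:121495725-121495753, minus strand: cctgctggactgCGTCAgcactgggtaaa
Tac1, chr6:7554852-7554880, plus strand: tccctaaaattgCGTCAtttcgaacacaa
Tac1, chr6:7555006-7555034, plus strand: gctctacaggctCGTCAcgcctgagataa
Members with the motif included genes that entered the tests (Cck, Adcyap1, Tac1) and genes with at most 5 UMIs in the kept cells of either library (Vip, Cartpt). TATAAA, the core of the TATA box, was present in 2 of the 7 members and in 2 of their 9 windows, against 13.6% of all windows.

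Npy, the precursor of neuropeptide Y, is encoded on chromosome 6 (6:49822710-49829507, GRCm38.p6) and marks a subset of cortical interneurons in the adult. It was highest in MGE Sst+ interneurons, at 858.6 CPM in WT replicate 1 and 645.1 in WT replicate 6 (752 ± 151, SD, n = 2 libraries). MGE Sst- interneurons had 222.2 and 200.4 CPM, and deep-layer excitatory neurons 46.5 and 103.7. These 3 classes followed each other without overlap of the libraries. GE progenitors, with 28.1 and 13.2 CPM, and CGE interneurons, with 23.6 and 13.8, overlapped. From the striatal Six3/Drd2 neurons at 12.3 CPM in both libraries down to Cajal-Retzius cells at 2.48 and 6.73 CPM, each class overlapped its neighbour in the order.

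**Figure D1:**
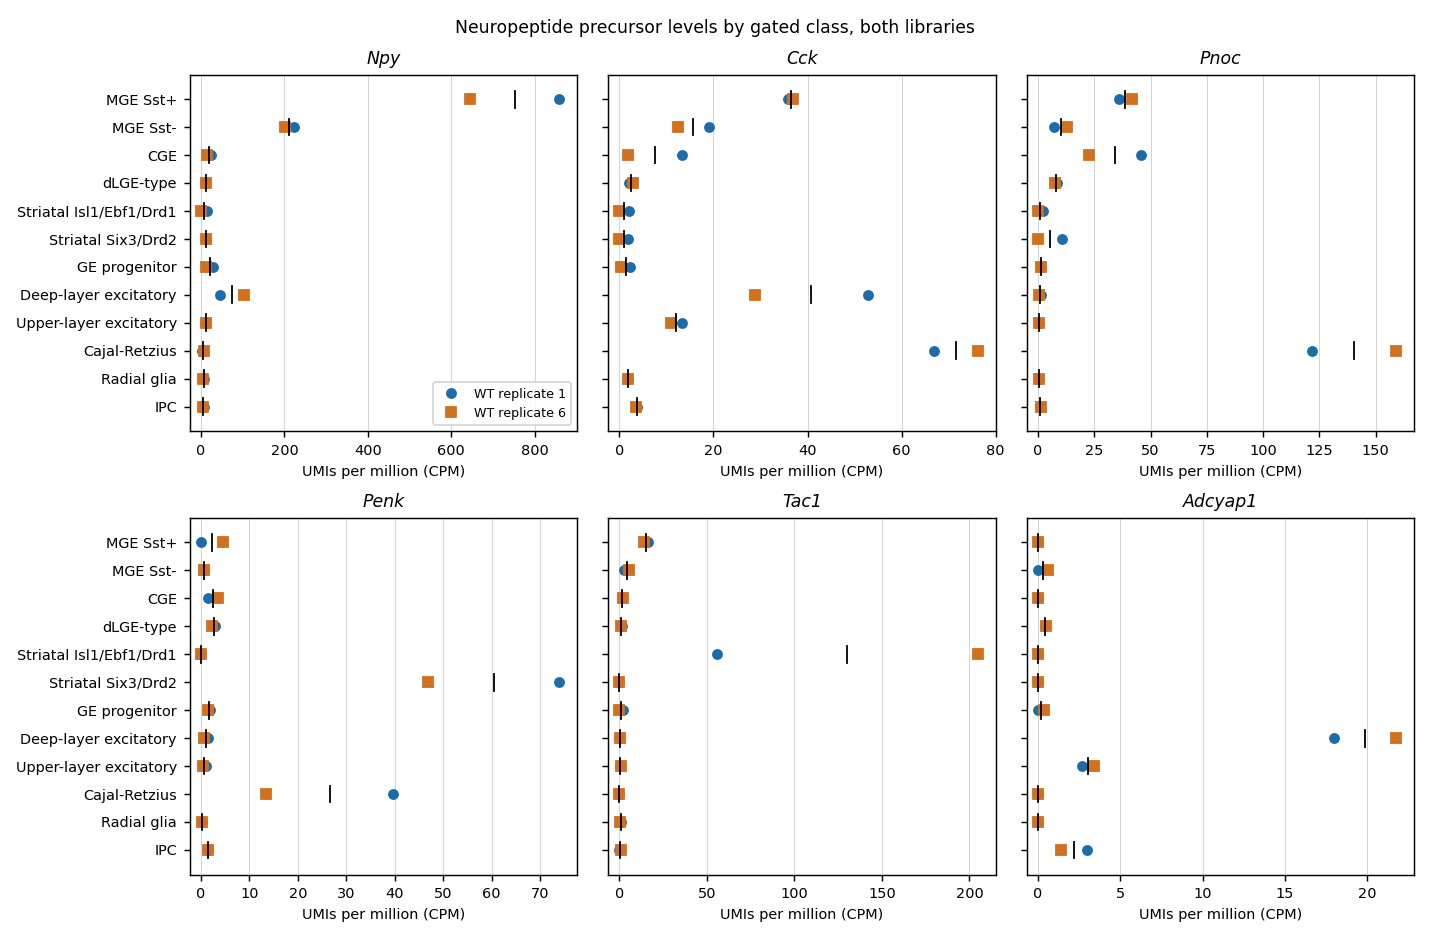
Levels of the 6 members tested, in CPM (UMIs per 1000000, linear axis with its own range in each panel), in the 12 neural classes. Circles are WT replicate 1, squares WT replicate 6 and bars the mean of both. Npy is highest in MGE Sst+ cells, Cck and Pnoc in Cajal-Retzius cells, Penk in striatal Six3/Drd2 neurons, Tac1 in striatal Isl1/Ebf1/Drd1 neurons and Adcyap1 in deep-layer excitatory neurons.

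Because the classes differed in depth, the share of cells with Npy was also computed for 2000 UMIs per cell, as the share expected when each cell is thinned to that number at random. Shallower cells were left out, which kept 90 and 80 MGE Sst+, 358 and 382 MGE Sst- and 331 and 310 deep-layer cells. The thinned share was 43.2% and 38.3% in MGE Sst+ cells, 20.4% and 18.0% in MGE Sst- cells, 5.30% and 7.84% in deep-layer neurons, and 3.78% and 3.14% in CGE interneurons. In upper-layer neurons it was 2.09% and 1.48%. In non-neural cells the mean ranged from 0.68% in endothelial cells to 2.35% in microglia, and shares in that range cannot be told apart from free RNA. The microglia libraries differed widely (SD 2.79), so the CGE shares cannot be told apart from free RNA either. Without thinning, 49 of 98 and 43 of 87 MGE Sst+ cells had an Npy UMI, against 110 of 407 and 100 of 431 MGE Sst- cells.

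**Figure D2:**
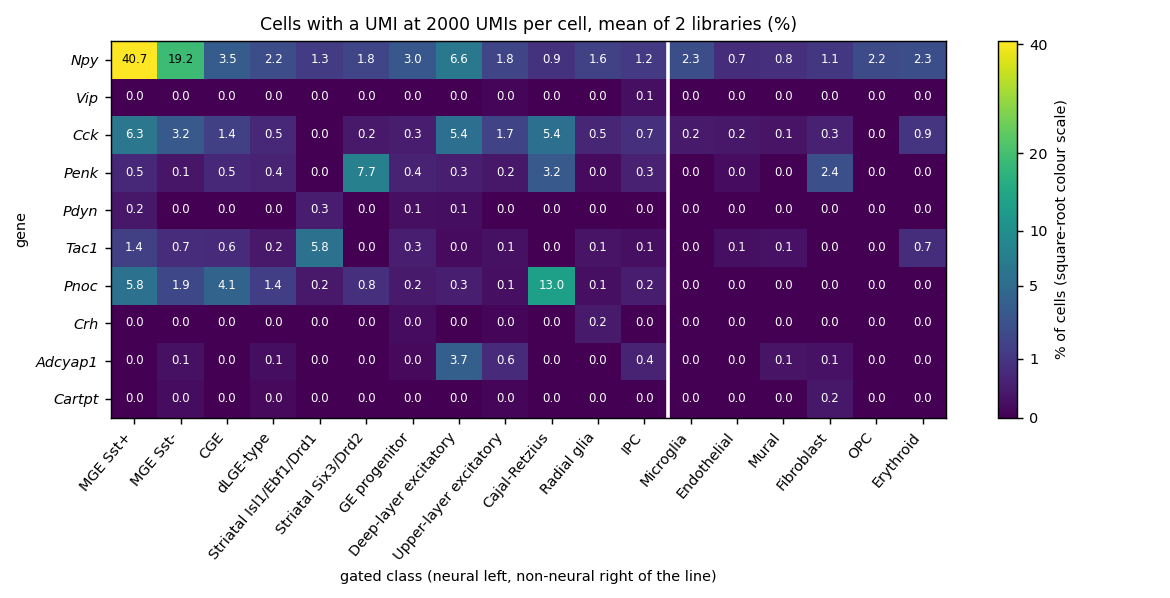
Share of cells (%) with at least 1 UMI of each of the 10 members (rows) in each gated class (columns), expected at 2000 UMIs per cell, as the mean of both libraries on a square-root colour scale. Npy in MGE cells and Pnoc in Cajal-Retzius cells give the brightest fields, and Vip, Pdyn, Crh and Cartpt stay at or below 0.27% everywhere.

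Among the gated neural classes, cells rich in Npy, defined here by 5 or more UMIs, were most frequent in the MGE and deep-layer classes. A further 13 and 23 rich cells, with 372 and 491 Npy UMIs, were among the cells that passed no gate. Within the gated classes, rich cells made up 25.5% and 19.5% of MGE Sst+ cells and 8.35% and 5.8% of MGE Sst- cells. Among the MGE cells that were rich in Npy, 25 of 59 in WT replicate 1 and 17 of 42 in WT replicate 6 also had an Sst UMI. Conversely, Sst was found in 30.8% and 30.1% of MGE cells with an Npy UMI and in 14.2% and 11.7% of MGE cells without it. Rich cells were deeper, with medians of 7908 and 4570 UMIs against 3492 and 4083.5 in MGE Sst+ cells without Npy, and of 5241 and 5229 against 3545 and 3161 in the Sst- class, and the part of depth was not tested.

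Npy transcripts in deep-layer excitatory neurons lay in few cells. The cells with 5 or more UMIs numbered 11 of 338 and 17 of 313, and they held 132 of the 168 and 264 of the 295 Npy UMIs of the class. Upper-layer neurons had only 4 of 2004 and 5 of 2298 such cells. All 11 and 17 rich deep-layer cells had a UMI of Neurod6, an excitatory neuron gene, and none had Lhx6 or Gad1. Gad2 was found in 0 and 2 of them and Sst in 1 and 1. The median number of the 8 GABAergic markers in these cells was 0, as it was in deep-layer cells without Npy. In those cells Neurod6 was found in 94.1% and 90.8%, Gad1 in 3.29% and 1.84% and Lhx6 in 2.96% and 2.21%. Neurod6, Gad1 and Gad2 are gating markers, so their shares follow in part from the gate. Foxp2, a deep-layer transcription factor gene, was detected in 10 of 11 and 17 of 17 rich cells, against 45.4% and 46.0% of deep-layer cells without Npy. Hs3st4, which encodes a heparan sulfate sulfotransferase and marks layer 6, was in 90.9% and 82.4% against 49.3% and 52.9%. Tle4, another layer 6 gene, had similar shares, 72.7% and 76.5% against 73.7% and 71.7%. The other gating markers were Zfpm2 (54.5% and 76.5% against 73.0% and 75.7%), Fezf2 (54.5% and 70.6% against 62.8% and 60.3%) and Bcl11b (90.9% and 82.4% against 91.8% and 90.1%). The shares of these 6 markers were compared after the data were seen and are given as a description.

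**Figure D3:**
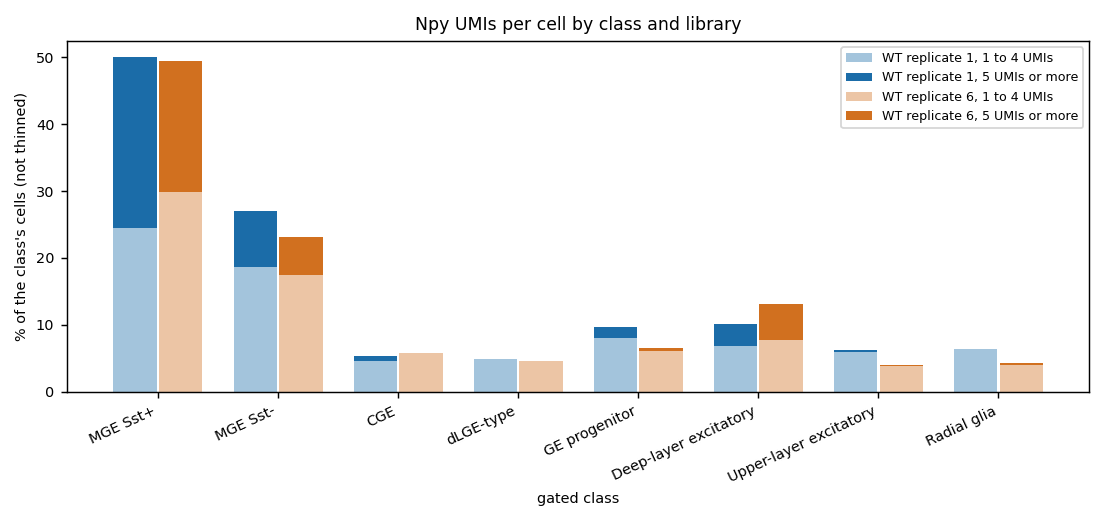
Share of cells (% of the class, not thinned, linear axis from 0) with 1 to 4 Npy UMIs (light) and with 5 or more (dark) in 8 classes, WT replicate 1 in blue and WT replicate 6 in orange. MGE Sst+, MGE Sst- and deep-layer cells have the widest dark parts, and the dark part is narrow or missing in CGE, dLGE-type and upper-layer cells.

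Cck encodes cholecystokinin (9:121489824-121495694), a peptide of both interneurons and excitatory neurons in the adult cortex. Its level was 67.0 and 76.2 CPM in Cajal-Retzius cells, 52.8 and 28.8 in deep-layer neurons, 35.8 and 37.0 in MGE Sst+ cells, 19.1 and 12.4 in MGE Sst- cells, 13.3 and 10.99 in upper-layer neurons and 13.3 and 1.73 in CGE interneurons. Deep-layer and MGE Sst+ values overlapped. The Cajal-Retzius value rested on 5 cells in WT replicate 1, with 15, 8, 2, 1 and 1 UMIs, and on 6 cells in WT replicate 6, with 18, 11, 2, 1, 1 and 1. In deep-layer neurons 65 of 338 and 40 of 313 cells carried Cck, and cells with 5 or more UMIs numbered 14 and 2 and held 108 and 12 UMIs. A further 11 and 3 such cells, with 126 and 20 Cck UMIs, were excitatory cells that passed no subclass gate.

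Pnoc, the precursor of nociceptin, an opioid-like peptide, lies at 14:65400673-65425564. Cajal-Retzius cells, early-born reelin-secreting neurons of the marginal zone, had 121.6 and 159.2 CPM. The UMIs came from 9 of 43 cells (14, 10, 6, 5, 5, 3, 2, 2 and 2 UMIs) and from 10 of 35 cells (22, 16, 12, 8, 4, 3, 3, 1, 1 and 1). Reln was detected in all of these cells, Trp73 in 9 of 9 and 9 of 10, and Gad1 in 1 and 0, and 6 and 7 of them had no GABAergic marker at all. These are gating markers, so their shares follow in part from the gate. In the Cajal-Retzius cells without Pnoc, Reln was in 31 of 34 and 25 of 25. Trp73 was in 28 and 23 of those cells and Gad1 in 1 and 0. Cells with Pnoc were deeper, with medians of 12216 and 17742.5 UMIs against 5639 and 7728 in the other Cajal-Retzius cells, and the part of depth in the split was not tested. At 2000 UMIs per cell, 11.6% and 14.4% of Cajal-Retzius cells were expected to show Pnoc, against 24.8% on average without thinning.

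Outside Cajal-Retzius cells, the highest mean Pnoc levels were in interneurons. CGE interneurons had 45.8 and 22.5 CPM and MGE Sst+ interneurons 35.8 and 41.6, and these overlapped. MGE Sst- cells had 7.08 and 12.97 CPM and dLGE-type cells 8.43 and 7.54. Striatal Six3/Drd2 neurons had 10.6 and 0 CPM, from 6 UMIs, a range that overlapped the dLGE-type cells, and Isl1/Ebf1/Drd1 neurons 2.06 and 0. Excitatory neurons ranged from 0.27 to 1.11 CPM, and no Pnoc UMI was found in the non-neural classes.

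Penk, the enkephalin precursor (4:4133536-4138815), and Tac1, the precursor of substance P and neurokinin A (6:7555061-7562978), split the striatal classes. Penk was at 73.9 and 46.8 CPM in Six3/Drd2 neurons (14 of 84 and 10 of 78 cells) and had no UMI in 71 and 45 Isl1/Ebf1/Drd1 neurons, where a count of 0 allows up to 6.19 and 10.4 CPM. Over both libraries it was at least 16.1-fold higher in Six3/Drd2 neurons, with 3 counts as the floor for the class at 0. Tac1 was at 55.7 and 204.8 CPM in Isl1/Ebf1/Drd1 neurons (4 of 71 and 5 of 45 cells) and had no UMI in Six3/Drd2 neurons, which allows up to 5.28 and 7.39 CPM. It was at least 36.1-fold higher in Isl1/Ebf1/Drd1 neurons. From WT replicate 1 alone the bounds are 11.9-fold for Penk and 10.5-fold for Tac1, and from WT replicate 6 alone 4.49-fold and 27.7-fold, with 3 counts per library as the floor. The Tac1 level came mostly from 2 cells per library, with 12 and 11 UMIs in WT replicate 1 and 37 and 19 in WT replicate 6. No striatal cell of the 155 and 123 had both genes.

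Elsewhere Penk was at 39.7 and 13.5 CPM in Cajal-Retzius cells, from 4 cells in each library (9, 3, 3 and 1 UMIs, then 2, 2, 1 and 1). In fibroblasts, the cells of the meninges and vessel sheath, it was at 13.77 and 12.99 CPM, spread over 11 of 73 and 9 of 82 cells. Tac1 reached 16.1 and 13.9 CPM in MGE Sst+ cells, from 4 and 2 cells. A further 8 Tac1 UMIs in 1 cell of WT replicate 1 and 88 in 2 cells of WT replicate 6 belonged to GABAergic cells that passed no subclass gate.

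Adcyap1, the precursor of the peptide PACAP (17:93198245-93206541), was found in excitatory neurons. Deep-layer neurons had 18.0 and 21.8 CPM, spread over 41 of 338 and 43 of 313 cells with at most 4 UMIs each, and upper-layer neurons had 2.68 and 3.43 CPM. IPCs had 2.98 and 1.42 CPM, which overlapped the upper-layer range. MGE Sst+, CGE, both striatal classes, Cajal-Retzius cells and radial glia had no Adcyap1 UMI. Deep-layer neurons were at least 54.4-fold higher than radial glia, at least 8.23-fold higher than CGE interneurons, at least 6.49-fold higher than MGE Sst+ interneurons and at least 5.56-fold higher than Cajal-Retzius cells, and the bounds differ with the size of the class at 0. From 1 library alone these bounds are 26.0-fold and 28.8-fold against radial glia, 4.06-fold and 4.20-fold against CGE interneurons, 3.34-fold and 3.14-fold against MGE Sst+ interneurons and 2.42-fold and 3.24-fold against Cajal-Retzius cells, in WT replicates 1 and 6 respectively.

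The remaining members were close to absent at this depth, with all counts taken from the kept cells. Vip, which marks CGE-derived interneurons of the postnatal cortex (10:5639193-5647617), had 0 and 4 UMIs in the respective libraries, of which 3 lay in 1 upper-layer cell and 1 in an IPC. In the 132 and 139 CGE interneurons a count of 0 allows up to 4.43 and 5.18 CPM. Pdyn, the dynorphin precursor (2:129686549-129699938), had 5 and 7 UMIs, including 2 in Isl1/Ebf1/Drd1 neurons of WT replicate 1. Crh, which encodes corticotropin-releasing hormone (3:19693401-19695396), had 10 and 6 UMIs, of which 5 and 2 were in radial glia. Cartpt, the CART peptide precursor (13:99898483-99910179), had 5 and 3 UMIs with at most 2 in any class of a library.

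The comparisons between classes used edgeR's quasi-likelihood test on UMI sums per library and class, with Benjamini-Hochberg adjustment over 13333 genes and a threshold of 0.05. The labels do not state whether the libraries come from separate animals, so p-values measure only the spread between these 2 libraries. Of 54 tests of members in 9 comparisons, 24 passed. In these sums fewer cells with a transcript and less transcript per cell cannot be told apart.

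Cortical interneurons (MGE and CGE) were compared with excitatory neurons (deep-layer and upper-layer). Of the 6 members tested 4 passed, where 36.2% of all genes did. Pnoc was higher in interneurons (log2 difference 5.49 ± 0.35 SE, adjusted p = 9.67e-13), with class averages of 29.6 and 25.7 CPM against 0.69 and 0.31. Npy was higher by 2.24 ± 0.29 (adjusted p = 6.04e-07), with 368.2 and 286.4 CPM against 28.4 and 58.4. The fit averages classes on the log scale, so ratios of these plain CPM averages differ from the fitted difference. The Npy excess did not hold for every interneuron class, as CGE interneurons (23.6 and 13.8 CPM) were below deep-layer neurons (46.5 and 103.7 CPM). Tac1 was higher by 3.90 ± 1.14 (adjusted p = 0.0093), but this call was lost without either library (adjusted p = 0.131 without WT replicate 1 and 0.0565 without WT replicate 6). Adcyap1 was lower (adjusted p = 5.22e-06), with 1 UMI in all interneurons. Cck differed by -0.49 ± 0.25 (adjusted p = 0.133) and Penk by 0.57 ± 0.74 (adjusted p = 0.589).

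Within MGE interneurons, Sst+ cells were compared with Sst- cells. They had more Npy (1.79 ± 0.24, adjusted p = 0.000194) and more Pnoc (1.90 ± 0.43, adjusted p = 0.0149), so that 2 of 6 members passed where 2.04% of genes did. Without WT replicate 1 the adjusted p was 0.0709 for Npy and 0.493 for Pnoc, and without WT replicate 6 that of Pnoc was 0.119. Cck (1.15 ± 0.43, adjusted p = 0.232) and Tac1 (1.87 ± 0.83, adjusted p = 0.352) did not pass, nor did Penk, with 2 and 2 UMIs, and Adcyap1, with 0 and 1. The Sst+ gate needs an Sst UMI, and the median cell had 5222 and 4604 UMIs in the Sst+ class against 3921 and 3401 in the Sst- class.

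CGE interneurons had far less Npy than MGE interneurons (-4.37 ± 0.37, adjusted p = 3.22e-09), the only 1 of 6 members to pass in the fit without a replicate block, where 6.13% of genes did. Cck was lower by 1.57 ± 0.55, with an adjusted p of 0.104, and of 0.0357 with the library as a replicate block. Pnoc differed by 0.85 ± 0.35 (adjusted p = 0.211), Tac1 by -2.24 ± 1.22 (adjusted p = 0.426) and Penk by 1.14 ± 1.24 (adjusted p = 0.777), and Adcyap1 had 0 and 1 UMIs. Between dLGE-type and CGE cells 1 of 6 members passed, where 7.02% of genes did. This was Pnoc, which was lower in dLGE-type cells (-2.13 ± 0.41, adjusted p = 0.000907), though not without WT replicate 1 (adjusted p = 0.283). Npy differed by -0.76 ± 0.62 (adjusted p = 0.596), Cck by -1.69 ± 0.82 (adjusted p = 0.287), Penk by 0.14 ± 1.04 (adjusted p = 0.973) and Tac1 by -0.51 ± 1.74 (adjusted p = 0.932), and Adcyap1 had 2 and 0 UMIs.

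Striatal neurons were compared with cortical interneurons. Npy was lower in striatal neurons (-3.79 ± 0.46, adjusted p = 5.78e-07), as were Pnoc (-3.06 ± 0.57, adjusted p = 0.000294) and Cck (adjusted p = 0.00158), which had only 2 UMIs in all striatal cells. These were 3 of 6 members, where 16.5% of genes passed, and the Cck call was lost without WT replicate 1 (adjusted p = 0.19). Penk averaged 37.0 and 23.4 CPM over the striatal classes against 0.67 and 2.89 in interneurons, and Tac1 27.9 and 102.4 CPM against 6.78 and 6.97. Neither passed (adjusted p = 0.967 and 0.873), and each had 1 striatal class at 0, so no fitted difference is given. Adcyap1 had 0 and 1 UMIs. Between the striatal classes Tac1 (adjusted p = 2.38e-05) and Penk (adjusted p = 4.82e-05) passed in opposite directions, 2 of 6 members where 3.43% of genes did. Penk missed the threshold without WT replicate 1 (adjusted p = 0.058). Npy (7 and 12 UMIs), Pnoc (1 and 6), Cck (1 and 1) and Adcyap1 (0 and 0) did not pass.

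Deep-layer neurons exceeded upper-layer neurons in Npy (2.66 ± 0.26, adjusted p = 9.05e-09), Cck (1.79 ± 0.23, adjusted p = 1.19e-06) and Adcyap1 (2.69 ± 0.28, adjusted p = 4.61e-07). These 3 of 6 members passed where 17.4% of genes did. With excitatory cells left out if they had a UMI of any GABAergic marker, 246 and 243 deep-layer and 1459 and 1748 upper-layer cells remained, and the Npy difference was 2.77 ± 0.28. Pnoc differed by 1.38 ± 0.89 (adjusted p = 0.341) and Penk by 0.53 ± 0.72 (adjusted p = 0.705), and Tac1, with 1 and 15 UMIs, did not pass.

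Cajal-Retzius cells were set against excitatory neurons, and 5 of 6 members passed where 27.7% of genes did. Pnoc was 7.97 ± 0.36 higher on the log2 scale (adjusted p = 1.27e-15), Penk 4.65 ± 0.58 higher (adjusted p = 6.3e-07) and Cck 1.53 ± 0.31 higher (adjusted p = 0.000382). Npy was lower (-2.78 ± 0.83, adjusted p = 0.0122), as was Adcyap1, which had no UMI there (adjusted p = 0.00984). Without WT replicate 6 the adjusted p rose to 0.0598 for Npy, 0.0592 for Cck and 0.175 for Adcyap1, and without WT replicate 1 it was 0.101 for Adcyap1. Tac1 had no UMI in the class and did not pass. The class held 43 and 35 cells. Without TMM scaling the median of all genes in this comparison moved by 0.15 on the log2 scale, and 64.0% rather than 52.1% of the calls were higher, while the 5 members kept their directions.

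Radial glia and IPCs were compared with the same excitatory neurons, which also served in the comparisons with interneurons and with Cajal-Retzius cells. Cck (-3.20 ± 0.30, adjusted p = 7.49e-10), Npy (-2.38 ± 0.30, adjusted p = 1.79e-07) and Adcyap1 (adjusted p = 1.73e-07) were lower in the progenitors, 3 of 6 members where 61.1% of all genes passed, so the share of members is near or below the background. Pnoc, Penk and Tac1 were at or below 1 CPM on average on both sides and did not pass.

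**Figure D4:**
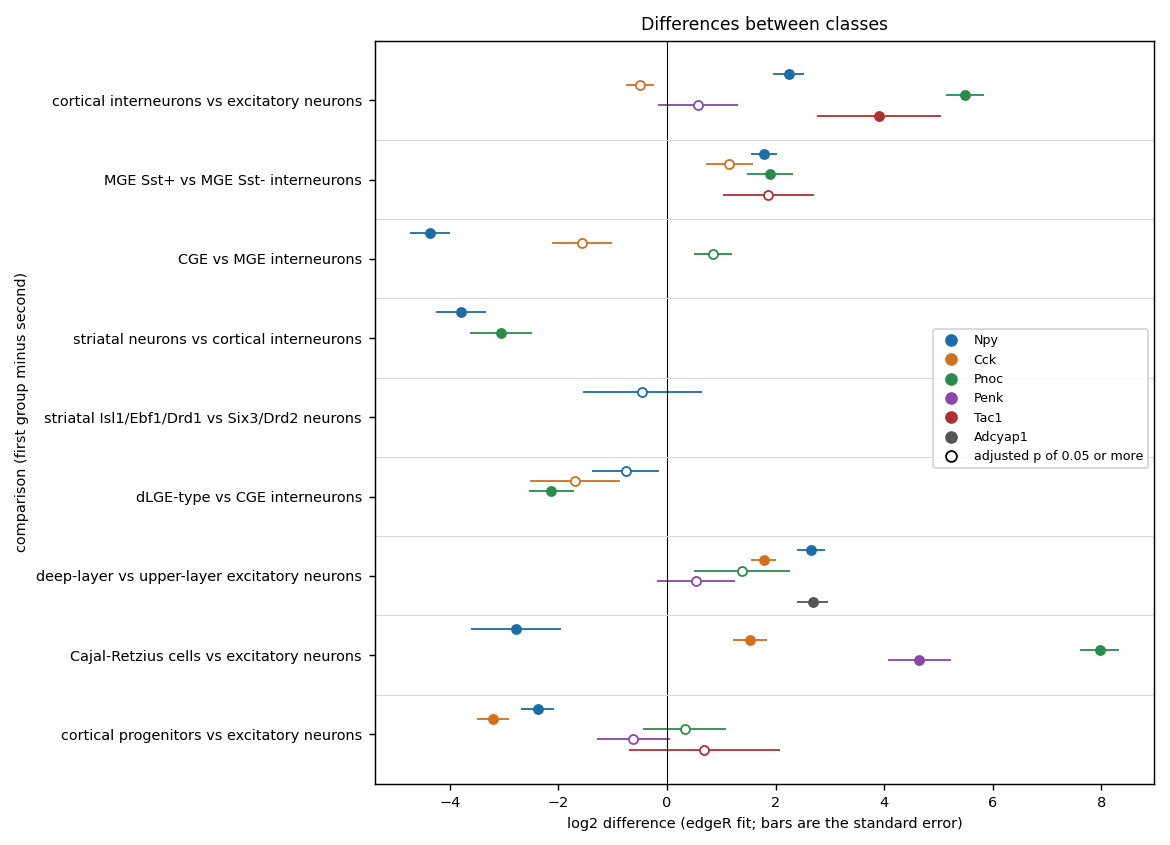
Log2 differences (horizontal axis, edgeR fit, bars are the standard error) of the members in the 9 comparisons, first group minus second, for members with more than 3 UMIs on both sides and no class at 0. Filled points have an adjusted p under 0.05. Pnoc in Cajal-Retzius cells lies farthest to the right at 7.97, and Npy in CGE against MGE interneurons farthest to the left at -4.37.

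Receptors for these peptides were followed through a list of 16 receptor genes and Crhbp, which encodes the binding protein of Crh. Of these 17 genes 8 were tested. Oprm1, the mu opioid receptor gene, stood at 148.6 and 107.6 CPM in Isl1/Ebf1/Drd1 neurons, the class without Penk, and at 40.5 and 46.8 CPM in the Six3/Drd2 neurons that carried Penk (1.60 ± 0.35, adjusted p = 0.00471). Npy1r was also higher in Isl1/Ebf1/Drd1 neurons, with 33.0 and 45.1 CPM (3.59 ± 0.75, adjusted p = 0.00373). These were 2 of 8 receptor genes called in that comparison, where 3.43% of all genes passed, both higher, with a list median of 1.62 against 0.00 for all genes. Npy2r, which encodes a presynaptic Y receptor, was at 6.57 and 8.71 CPM in cortical interneurons and 0.06 and 0.03 CPM in excitatory neurons (adjusted p = 1.38e-05), 1 of 3 receptor genes called there out of 8, each higher in interneurons, a share near the 36.2% of all genes. Adcyap1r1, the PACAP receptor gene, was highest in IPCs (35.0 and 51.7 CPM) and radial glia (40.8 and 37.1 CPM), classes with little or no Adcyap1, and was higher in progenitors than in excitatory neurons (1.30 ± 0.13, adjusted p = 5.15e-09). It was the only 1 of 8 receptor genes called higher in that comparison. A further 4 were lower, where 61.1% of all genes passed, with a list median of -2.21 against 0.03 for all genes. Cajal-Retzius cells had no Adcyap1r1 UMI.

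**Figure D5:**
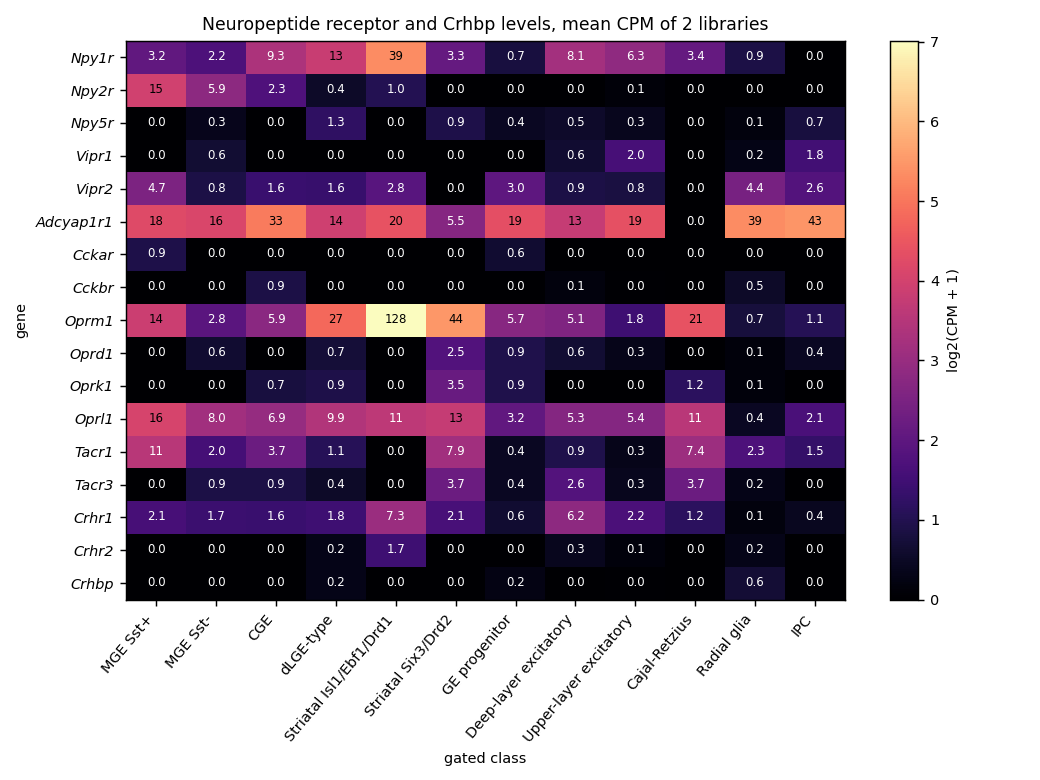
Mean level over both libraries (CPM, printed in each field, colour on a log2(CPM + 1) scale) of the 16 receptor genes and Crhbp in the 12 neural classes. Oprm1 and Npy1r are highest in striatal Isl1/Ebf1/Drd1 neurons and Npy2r in MGE Sst+ cells, and Adcyap1r1 is brightest in IPCs and radial glia and black in Cajal-Retzius cells.

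The genes that cut and pack the precursors were expressed in many classes, and all 13 on the list were tested. Cajal-Retzius cells had 5 higher and 2 lower against excitatory neurons, where 27.7% of all genes passed, with a list median of 0.22 against -0.04 for all genes. Among the higher genes, Pcsk1n, which encodes an inhibitor of prohormone convertase 1, reached 571 and 751 CPM (1.96 ± 0.13, adjusted p = 2.5e-12), and the granin gene Scg2 47.1 and 60.5 CPM (3.32 ± 0.41, adjusted p = 4.29e-07). Deep-layer neurons had 7 higher and 3 lower against upper-layer neurons, where 17.4% of all genes passed, among them Pcsk2, the gene of prohormone convertase 2, with 113.4 and 121.2 CPM against 10.96 and 11.26 (3.41 ± 0.21, adjusted p = 2.38e-12). MGE Sst+ cells exceeded Sst- cells in 1 of the 13, Pcsk1n (0.99 ± 0.17, adjusted p = 0.00121), with 283 and 310 CPM, where 2.04% of all genes passed. In the progenitors 10 of 13 were lower and 3 higher than in excitatory neurons, where 61.1% of all genes passed. In dLGE-type cells 6 of 13 were lower and 0 higher than in CGE interneurons, where 7.02% of all genes passed. Striatal neurons had 4 of 13 lower and 0 higher against cortical interneurons, where 16.5% of all genes passed. Between the striatal classes 3 of 13 were called, where 3.43% of all genes were, all higher in Isl1/Ebf1/Drd1 neurons, led by Pam, the peptide amidating enzyme gene (4.10 ± 0.30, adjusted p = 2.5e-10).

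Genes whose pattern over the 12 neural classes was most like that of a member were listed by Pearson's r of log2(CPM + 5), as a description over 12 classes that share the same 2 libraries. For Npy these were Mkx (r = 0.940), Kcns3 (0.938) and Kcnh3 (0.924), a homeobox gene and a pair of potassium channel subunit genes. For Cck they were Gpr162 (0.952), Glp2r (0.935) and Cygb (0.926), and for Pnoc Snhg11 (0.982), A830052D11Rik (0.950) and Gm29514 (0.931). For Adcyap1 they were Grp (0.953), which encodes another neuropeptide, gastrin-releasing peptide, Ppp1r1b (0.941) and Gm20063 (0.936). Penk was closest to Upb1 (0.971), A830012C17Rik (0.962) and Skap2 (0.954), and Tac1 to Gpr171 (0.967), Gm46102 (0.942) and Washc4 (0.915).

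Members also met in the same Cajal-Retzius cells. Of the Cajal-Retzius cells with Cck, 3 of 5 and 4 of 6 also had Pnoc. Of those with Pnoc, 4 of 9 and 3 of 10 had Penk, against 0% and 4% of the other Cajal-Retzius cells. The cells with a member were the deeper ones in each case, and the part of depth was not tested. Of the deep-layer cells rich in Npy, 1 of 11 and 2 of 17 had Cck, and 1 of 11 and 3 of 17 had Adcyap1.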

How the data were processed

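Single-cell 3' v3.1 libraries (10x Genomics) of dissociated E16.5 dorsal telencephalon were deposited as raw UMI counts per gene and cell. Per the submitters' processing notes, the authors used Cell Ranger 7.0.0 and mm10. The annotation and whether intronic reads were counted are not given in the sources used here. Coordinates come from RefSeq tables of GRCm38.p6. The cell filter, 1500 to 60000 UMIs and under 10% mitochondrial UMIs, is stated by the study for nuclei.

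The members and lists were chosen with earlier results of these data known, and gate thresholds were set in this work. Likely doublets were removed by a Scrublet-type score at 0.8% per 1000 called cells (920 and 857 cells). A cell went to the broad class with most distinct markers (8 per class, at least 3, lead of 2), then to a subclass (6 markers, at least 2, lead of 1). GABAergic cells with 2 or more cycling markers were GE progenitors. The 2 libraries shared 59 barcodes and differed beyond sampling noise (chi-square per degree of freedom 26.9). Counting error alone limits intervals and floors (a count of 0 is read as up to 3).

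UMIs were summed per library and class (24 sums in 1 fit) and tested with edgeR 4.0.16 (two-sided quasi-likelihood test, TMM, filterByExpr) in R 4.3.3, which was tested on simulated data. DESeq2 1.42.0 was an alternative. Python 3.11.15 with NumPy 2.4.6, SciPy 1.17.1 and pandas 2.3.3 did the rest. Sums of the same replicate number come from the same library, so the numbers pair the sums. Over 66 pairs of classes their deviations correlated with a median r of 0.073 (0.023 to 0.325, across 13333 genes). The 6 members tested are named in every comparison and the other 4 by their UMIs, with 3 genes of most similar pattern per member tested. From each list some genes called higher are named. Genes called lower are given only as counts, and not every comparison of the lists is described. Other alternatives were RLE or no scaling, no low-count filter, only the contrasted classes, doublets kept, stricter cells or gates, at least 2 Sst UMIs and leaving out each library. The make-up of the ungated cells is not reported here.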

Additional observations from a re-analysis of the deposited data

Results flagged for a closer look

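Npy was found in cells outside every comparison. The 1906 and 1801 cells that passed no gate held 500 and 606 Npy UMIs in WT replicates 1 and 6, respectively. Their Npy level was 53.6 CPM in WT replicate 1 (95% Poisson interval 49.0 to 58.5) and 64.3 in WT replicate 6 (59.3 to 69.7), a mean of 59 CPM. The UMIs lay in 122 and 116 cells, with a highest count of 102 and 66 in 1 cell. Cells with 5 or more Npy UMIs numbered 13 and 23 and held 74.4% and 81.0% of the ungated Npy UMIs. Of these, 7 and 16 had none of the 8 GABAergic markers, and 4 and 3 had an Sst UMI. These cells are given no cell type name, and the level was not tested against a gated class.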

How the results depend on the processing

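Among 281 checks of the 24 member calls under the alternatives, 265 stayed past the threshold, 16 lost it and 0 changed direction. DESeq2, RLE or no scaling, no low-count filter, only the contrasted classes in the fit, and keeping likely doublets each retained 24 of 24. The fit with the replicate block also retained 24 of 24, and the numbers pair the sums because both come from the same library. With the block, members called between CGE and MGE interneurons rose from 1 to 2, as they did without the low-count filter and with 1 more marker per gate. The added member was Cck in each (adjusted p = 0.0357, 0.012 and 0.0433). Without the low-count filter Cck also passed in interneurons against excitatory neurons (-0.58, adjusted p = 0.023), which made 5 members called there rather than 4. The block changed no other call of a member. On the other lists it moved Oprl1 in interneurons against excitatory neurons from 0.0473 to 0.0507, Adcyap1r1 in CGE against MGE interneurons from 0.0497 to 0.0525, and Chgb in Sst+ against Sst- MGE cells from 0.0705 to 0.0496.

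The stricter cell filter lost Tac1 in interneurons against excitatory neurons (adjusted p = 0.0624) and Npy in Cajal-Retzius cells against excitatory neurons (0.0628). One more marker per gate lost the same Tac1 call (0.141) and Pnoc in Sst+ against Sst- MGE cells (0.0807), so that 1 member passed there. Leaving out 1 library leaves 1 sum per class, whose spread is taken from the other classes, and lost 7 calls without WT replicate 1 and 5 without WT replicate 6. Members called then numbered 0 to 1 for Sst+ against Sst- MGE cells, 1 to 2 between the striatal classes, 0 to 1 for dLGE-type against CGE cells and 2 to 4 for Cajal-Retzius cells. The edgeR counts of 0 came without WT replicate 1, where 3 members (Sst+ against Sst- MGE cells) and 1 member (dLGE-type against CGE cells) had an unadjusted p under 0.05. DESeq2 was run on both libraries only. Excitatory cells without a GABAergic marker were an alternative chosen after seeing the data, and 15 of 15 calls held.

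Counts over all genes moved by over 1.5 times in Sst+ against Sst- MGE cells, from 272 to 435 without the low-count filter, 439 with at least 2 Sst UMIs and 8 or 85 without 1 library. With 1 library left out they fell to between 0.428 and 0.628 of the full count in the comparisons other than those of Sst+ cells and of progenitors, for example from 817 to 418 or 436 in CGE against MGE interneurons and from 2316 to 1029 or 1022 in deep-layer against upper-layer neurons. Vip, Pdyn, Crh and Cartpt had 0 to 10 UMIs in the kept cells of each library and were not tested, and the Cajal-Retzius and striatal levels rest on few cells.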
